A study of Mus musculus with 4 samples.

Results

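The genes described here encode 10 chaperones and folding helpers of the endoplasmic reticulum (ER), read out in group 2 innate lymphoid cells (ILC2) from pancreatic islets of fasted and fed mice. They were chosen by name (Hspa5, Hsp90b1, Sdf2l1, Calr, Canx, Pdia3, Pdia4, Pdia6, Manf and Creld2), with earlier results of these data known. All 10 were found among the 15835 genes of the count table, and all 10 were among the 7700 genes that passed the filter on low counts. The mice were C57BL/6j, and 4 fasted and 4 fed libraries were compared. They are named here by treatment and numbered as in the count table (1, 3, 4 and 5). The columns named control were taken as fed. The length of the fast, the age of the mice, how the cells were isolated and whether a library stands for 1 mouse are not given in the sources used here, so p-values measure the spread between libraries, which may be partly technical.

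Proteins that are secreted or sit in membranes fold inside the ER. Hspa5 (also known as BiP) is the ATP-driven HSP70 chaperone of this compartment, Hsp90b1 its HSP90 and Sdf2l1 a partner of the BiP complex. Calreticulin (Calr) and calnexin (Canx) hold sugar-bearing proteins until they are folded, and the disulfide isomerases Pdia3, Pdia4 and Pdia6 form and rearrange disulfide bonds. Manf and Creld2 are small secreted or ER-resident proteins known to be induced when unfolded proteins build up, the state sensed by the unfolded protein response. Pancreatic acinar cells, which make digestive enzymes in bulk, are known for an extensive ER and for high levels of these genes, whereas resting lymphocytes have a much smaller ER.

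The promoters of this family are known for the ER stress response element (ERSE), the letters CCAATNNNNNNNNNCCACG, which is bound by NF-Y together with ATF6. The 7 matches below are shown because the element recurs in promoters of the family. RefSeq promoter windows of build GRCm38.p6 (mm10), from 250 bases before to 50 bases after the annotated start, were searched on both strands for exact matches, and 9 of the 10 genes had a window (none for Manf). Capitals mark the defined letters of the element, and each site is written 5′ to 3′ along its gene, so an element on the opposite strand reads CGTGG and then ATTGG.
Hspa5, 65 to 47 bases before the start: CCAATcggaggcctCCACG
Hsp90b1, first site, 212 to 194 bases before: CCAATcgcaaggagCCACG
Hsp90b1, second site, 107 to 89 bases before: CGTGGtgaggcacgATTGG
Calr, 162 to 144 bases before: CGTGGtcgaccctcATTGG
Canx, 145 to 127 bases before: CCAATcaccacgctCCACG
Pdia6, 98 to 80 bases before: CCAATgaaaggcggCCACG
Creld2, 126 to 108 bases before: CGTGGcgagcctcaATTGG

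The element was thus present in 6 of the 9 genes with a window (Hspa5, Hsp90b1, Calr, Canx, Pdia6 and Creld2) and in 37 of all 27025 genes of the promoter table, or 0.137%. It was searched because this family is already known for it, so the share of all genes is given for scale only. Pdia3, Pdia4 and Sdf2l1 had no exact match in this window, which says nothing about other spacings or positions. The windows lie on chromosome 2 for Hspa5 (chr2:34771840-34772139, plus strand), 10 for Hsp90b1 (chr10:86705395-86705694, minus), 8 for Calr (chr8:84846882-84847181, minus), 11 for Canx (chr11:50325624-50325923, minus), 12 for Pdia6 (chr12:17266339-17266638, plus) and 15 for Creld2 (chr15:88819396-88819695, plus). The Calr window shares 285 bases with that of 1700122E12Rik and the Creld2 window 173 bases with that of Alg12, both running the other way and both among the 37 genes, so these sites are counted for both neighbours. The other elements searched, ERSE-II (ATTGGNCCACG) and the core of the unfolded protein response element (TGACGTGG), were found in 0 of the 9 genes and in 0.0444% and 0.714% of all genes. The 5 letters CCACG alone, which are part of both ERSE forms, were in the windows of 8 of the 9 genes and of 35.5% of all genes. A match is a string of letters and was not measured as a binding site. The 250 bases upstream of the Hspa5 start (chr2:34771840-34772089, plus strand) are shown as the best-known example, with the exact element in capitals.
Hspa5 upstream: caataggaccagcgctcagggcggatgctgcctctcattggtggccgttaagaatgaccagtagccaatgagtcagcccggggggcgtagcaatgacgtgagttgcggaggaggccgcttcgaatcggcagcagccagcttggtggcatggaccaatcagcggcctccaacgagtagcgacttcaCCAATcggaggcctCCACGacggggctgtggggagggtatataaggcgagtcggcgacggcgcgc

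The libraries held 2041697 to 9366807 counts in the fasted group and 1797504 to 25252366 in the fed group. A list of 31 acinar genes (digestive enzymes and granule proteins, with the trypsinogen-like gene 2210010C04Rik) took 3.09%, 3.45%, 70.3% and 72.0% of the counts in fasted libraries 1, 3, 4 and 5, against 43.3%, 49.6%, 75.1% and 67.2% in fed libraries 1, 3, 4 and 5. The groups overlapped, and the log2 difference in share was -1.91 (exact two-sided permutation test over 70 assignments, p = 0.37, smallest possible 0.0286). ILC2 markers were present as labelled, with 17 of 19 detected in every library and a summed level of 5456 to 6710 CPM (counts scaled to a common library total) over non-acinar counts in fasted and 4871 to 8587 CPM in fed libraries. Summed markers of other cells, on the same scale, ran over 7.73 to 34.8 and 8.82 to 33.4 for B and plasma cells, 137 to 176 and 87.7 to 122 for T cells, 10.3 to 133 and 5.56 to 28.5 for myeloid cells, 8.59 to 192 and 134 to 356 for islet endocrine cells, and 13.1 to 213 and 38.3 to 400 for stroma, ducts and vessels in fasted and fed libraries. Some marker genes, among them Igj and Ms4a1 (B and plasma cells), Lyz2 (myeloid cells), Gcg, Iapp and Chga (islet endocrine cells) and the ILC2 factor Rora, each had under 10 counts in all 8 libraries together. Other markers of the same cells were above that, among them Cd79b (B cells), C1qb (myeloid cells) and Ttr and the insulin genes Ins1 and Ins2 (islet endocrine cells). The part of these other cells in the chaperone levels was not tested, and in RNA pooled from many cells, fewer cells of a type cannot be told apart from less RNA per cell.

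Levels of single genes are given as CPM over library sizes scaled with TMM factors, a scaling that sets the bulk of genes equal between libraries. The TMM-scaled sizes came to 2.01 to 2.51 times the non-acinar counts of each library, meaning all counts outside the acinar list. This scale is therefore close to one relative to those counts. They still hold any transcripts of acinar cells that are not on the list, so acinar RNA is not fully set aside. The method counts 3′ ends, and levels are compared between libraries and not between genes. All 10 genes had lower mean levels in fasted than in fed libraries, with log2 fold changes (fasted minus fed) from -0.61 to -1.54 and a median of -1.01, where the median of all 7700 tested genes was -0.0017 and 50.2% of them were below 0. None of the 10 was called by edgeR's quasi-likelihood test at a Benjamini-Hochberg adjusted p under 0.05, and neither was any of the 7700 genes (0%). At an unadjusted p under 0.05 were 4 of the 10 (Calr, Pdia4, Creld2 and Manf) and 1.62% of all tested genes in the same direction. Because the 10 genes were chosen with earlier results of these data known, the shares of all genes are printed for scale only. Without fasted library 4 that count was 8 of the 10, beside 3.43% of the genes tested in that fit, and without fed library 4 it was 1 of the 10, beside 1.64%. With the library number as a replicate block, 7 of the 10 and 3.14% of all tested genes were lower at an unadjusted p under 0.05, and again 0 were called.

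**Figure D1:**
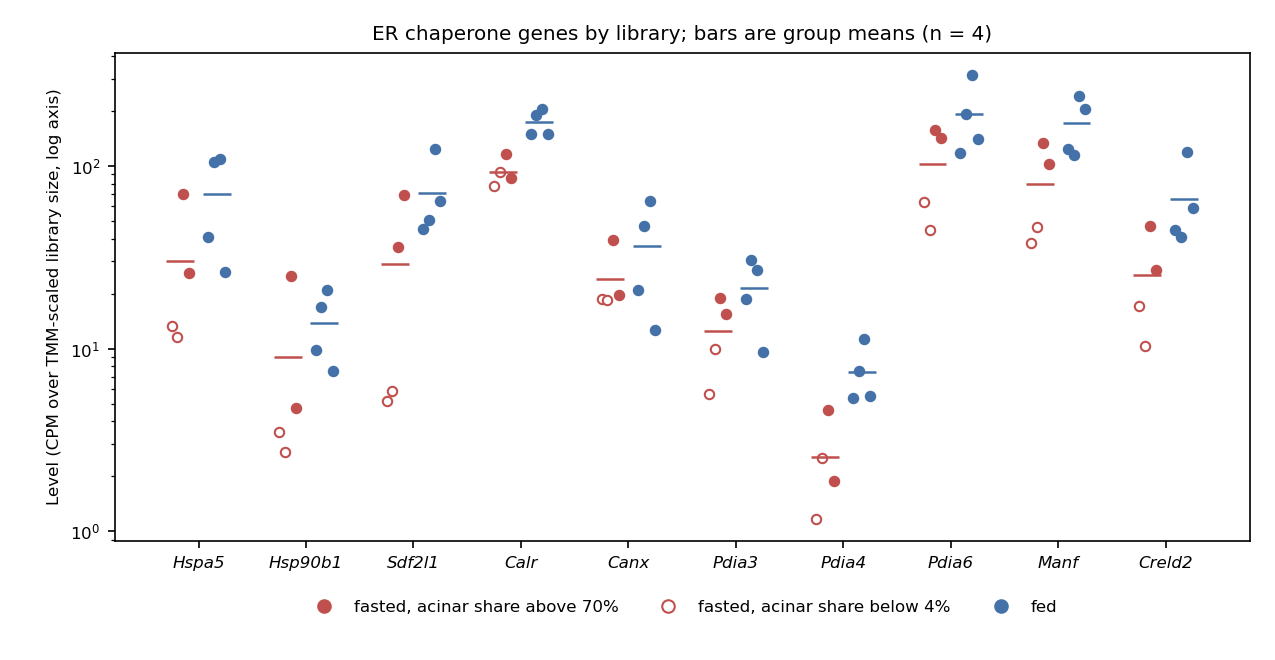
Level of each gene in each library, as CPM over TMM-scaled library size on a log axis, with fasted libraries left of fed libraries; short bars are group means (n = 4) and open points are fasted libraries 1 and 3, with acinar shares of 3.09% and 3.45%. Calr and Pdia4 do not overlap between the groups, and for Hspa5, Hsp90b1, Sdf2l1, Pdia6, Manf and Creld2 the open points lie below every other library.

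Among the general chaperones, Hspa5 stood at 13.3, 11.5, 70.2 and 25.8 CPM in fasted libraries 1, 3, 4 and 5, against 40.6, 105, 108 and 26.4 CPM in fed libraries 1, 3, 4 and 5. Fasted libraries 1 and 3 lay lowest, while fasted 5 lay just below the lowest fed library, 5, and the groups overlapped through fasted library 4. The log2 fold change was -1.22 ± 0.66 (SE; edgeR, unadjusted p = 0.099, adjusted p = 1.00). Hsp90b1 stood at 3.51, 2.73, 24.9 and 4.74 CPM in fasted libraries, against 9.81, 16.9, 21.0 and 7.54 CPM in fed libraries, in the same order. Here 3 fasted libraries lay below all fed ones and fasted library 4 lay above them all. Its log2 fold change was -0.64 ± 0.68, and it ran from -1.94 (without fasted library 4) to -0.34 (without fasted library 3) when single libraries were left out. Sdf2l1 stood at 5.15, 5.85, 35.9 and 69.2 CPM in fasted libraries, against 45.1, 50.6, 124 and 64.1 CPM in fed libraries. It varied more than any of the other 9 genes, 24.2-fold between the lowest and the highest library, and its log2 fold change of -1.29 ± 0.82 had an unadjusted p of 0.15 (edgeR). Left-out libraries moved the log2 fold change of Hspa5 to -2.07 (without fasted library 4) and that of Sdf2l1 to -2.18 (without fasted library 5).

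Calr, one of the lectin chaperones, gave the smallest p of the family in the fit without the replicate block. It stood at 77.4, 92.5, 116 and 85.7 CPM in fasted libraries 1, 3, 4 and 5, against 150, 189, 205 and 150 CPM in fed libraries, or 92.9 ± 16.6 against 174 ± 28.0 CPM (SD, n = 4 each). Every fasted library lay below every fed one, and the fasted library was lower by 0.80 to 1.03 on the log2 scale in each of the 4 same-number pairs. The log2 fold change was -0.90 ± 0.22, which ranked 23rd of 7700 genes by p and did not pass (edgeR, unadjusted p = 0.0015, Benjamini-Hochberg adjusted p = 0.50). Calr was also the least variable of the 10, with 2.65-fold between its lowest and highest library. Its membrane-bound relative Canx stood at 18.7, 18.5, 39.1 and 19.7 CPM in fasted libraries, against 21.0, 46.8, 64.5 and 12.7 CPM in fed libraries. Those groups overlapped from end to end, with the lowest value in fed library 5, and the log2 fold change was -0.61 ± 0.48 (edgeR, unadjusted p = 0.23), or -0.96 without fasted library 4 and -0.17 without fed library 4. Whether the change of Calr differed from that of Canx was not tested.

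Of the disulfide isomerases, Pdia4 was the other gene without overlap between the groups. It had 1.17, 2.54, 4.61 and 1.90 CPM in fasted libraries 1, 3, 4 and 5, against 5.35, 7.58, 11.2 and 5.48 CPM in fed libraries. It was the scarcest of the 10, with 5 to 152 counts in a library, and had a log2 fold change of -1.54 ± 0.53 (edgeR, unadjusted p = 0.014, adjusted p = 0.99). Pdia6 stood at 63.6, 44.7, 157 and 143 CPM in fasted libraries, against 118, 192, 314 and 141 CPM in fed libraries. Fasted libraries 4 and 5 lay within the fed range and fasted libraries 1 and 3 below it, at a log2 fold change of -0.91 ± 0.44 (edgeR, unadjusted p = 0.063), or -0.56 without fed library 4. Pdia3, the isomerase that works with the lectin chaperones, stood at 5.61, 9.95, 19.0 and 15.5 CPM in fasted libraries, against 18.7, 30.7, 26.8 and 9.59 CPM in fed libraries. Fed library 5 lay below 3 of the 4 fasted ones, and the log2 fold change was -0.79 ± 0.45. The groups did not overlap, with fasted libraries lower, for 2 of the 10 genes and for 1.31% of all tested genes.

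The stress-induced proteins Manf and Creld2 followed. Manf stood at 37.9, 46.1, 133 and 103 CPM in fasted libraries 1, 3, 4 and 5, against 124, 114, 243 and 205 CPM in fed libraries, and fasted library 4 alone reached the fed range. Manf overlaps Rbm15b on the same strand in the GENCODE vM21 annotation, with 730 counts for Rbm15b over the libraries, and the rule for reads in overlapping genes is not stated in the sources, so the level of Manf is uncertain to that extent. Its log2 fold change was -1.10 ± 0.42 (edgeR, unadjusted p = 0.024, adjusted p = 1.00). Creld2 stood at 17.1, 10.3, 46.8 and 27.1 CPM in fasted libraries, against 44.6, 40.9, 118 and 58.6 CPM in fed libraries, again with fasted library 4 alone in the fed range. Its log2 fold change was -1.38 ± 0.49 (edgeR, unadjusted p = 0.017, adjusted p = 1.00). Hspa5, Calr, Pdia4, Manf and Creld2 were lower in the fasted library of all 4 same-number pairs, and the other 5 genes in 3 of the 4. With the replicate block the SE of Manf and Creld2 came to 0.20 and 0.23 at log2 fold changes of -1.22 and -1.45 (edgeR, unadjusted p = 0.00031 and 0.00021, adjusted p = 0.45 for each), below the unadjusted p of Calr in that fit, 0.00059.

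The summed level of the 10 genes was lower in the fasted libraries poor in acinar RNA than in the other fasted ones. It was 244 and 245 CPM in fasted libraries 1 and 3, 646 and 495 CPM in fasted libraries 4 and 5, and 578, 793, 1237 and 680 CPM in fed libraries 1, 3, 4 and 5. The fasted mean was 407 ± 198 CPM and the fed mean 822 ± 290 CPM (SD, n = 4 each), a log2 ratio of -1.01. Without fasted libraries 1 and 3 it was -0.53. On CPM over the whole library, acinar counts included, the order within the fasted group turned round. There the sums were 510, 492, 447 and 279 CPM in fasted libraries 1, 3, 4 and 5, against 720, 1001, 663 and 474 CPM in fed libraries, a log2 ratio of -0.73. On that scale 3 of the 10 genes (Manf, Creld2 and Sdf2l1) and 0.364% of all tested genes had groups without overlap and lower fasted values, and Calr and Pdia4 overlapped.

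**Figure D2:**
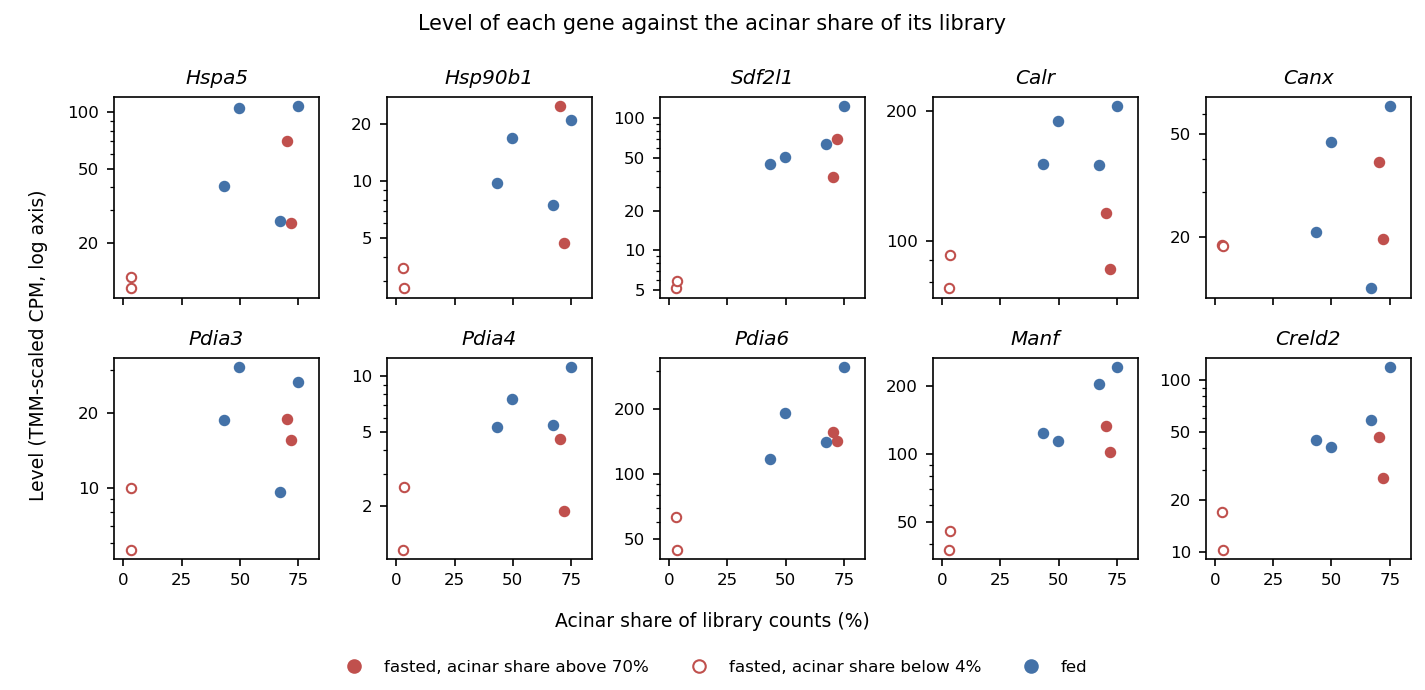
Level of each gene (TMM-scaled CPM, log axis) against the percentage of its library's counts on the acinar list, with 1 point for each of the 8 libraries. Fasted libraries 1 and 3 stand by themselves at 3.09% and 3.45%; among the 6 libraries above 10% the points show no clear order.

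Because the shares fell into separate clusters, no correlation over all 8 libraries is given. Among the 6 libraries with a share above 10% (fasted 4 and 5 and all fed), Pearson's r between the log2 level and the share ran from -0.30 for Calr to 0.51 for Sdf2l1 and Spearman's rho from -0.086 for Calr to 0.66 for Sdf2l1. The smallest exact two-sided permutation p over 720 pairings was 0.175, for the rho of Sdf2l1, and after adjustment over the 10 genes every p was 0.95 for r and 1.00 for rho. Without the 2 libraries farthest from the median share, fed 1 and 3, r ran from 0.10 for Manf to 0.92 for Pdia3, over 4 libraries. Fed and fasted libraries were pooled in these correlations, and treatment was not allowed for. Among the fed libraries in order of share (1, 3, 5 and 4), Sdf2l1 stood at 45.1, 50.6, 64.1 and 124 CPM. None of the other genes rose at every step, and the relation within a group was not tested.

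The makeup of the family's own counts needs no scaling between libraries, and the shares of Calr, Canx and Sdf2l1 in fasted libraries 1 and 3 lay outside the range of the other 6 libraries. Calr made up 31.8% (95% Wilson interval 29.0 to 34.7) and 37.8% (35.2 to 40.5) of the 10 genes' counts in fasted libraries 1 and 3. In fasted libraries 4 and 5 it made up 18.0% and 17.3%, and in fed libraries from 16.6% to 26.0%. Canx made up 7.68% (6.22 to 9.46) and 7.58% (6.24 to 9.17) in fasted libraries 1 and 3. In fasted libraries 4 and 5 it made up 6.05% (5.31 to 6.89) and 3.98%, and in fed libraries from 1.86% to 5.90%. For Canx the intervals of fasted library 4 and of fed library 3 (5.33 to 6.53) overlapped those of fasted libraries 1 and 3. Sdf2l1 made up 2.11% (1.40 to 3.18) and 2.39% (1.68 to 3.39) in fasted libraries 1 and 3, 5.57% and 14.0% in fasted libraries 4 and 5, and from 6.38% to 10.1% in fed libraries. Pdia6 made up 18.3% to 28.8% in fasted and 20.4% to 25.4% in fed libraries, and Hspa5 varied from 4.70% to 10.9% in fasted and from 3.88% to 13.2% in fed libraries. The intervals cover counting error only, and differences between libraries of 1 group exceeded them.

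**Figure D3:**
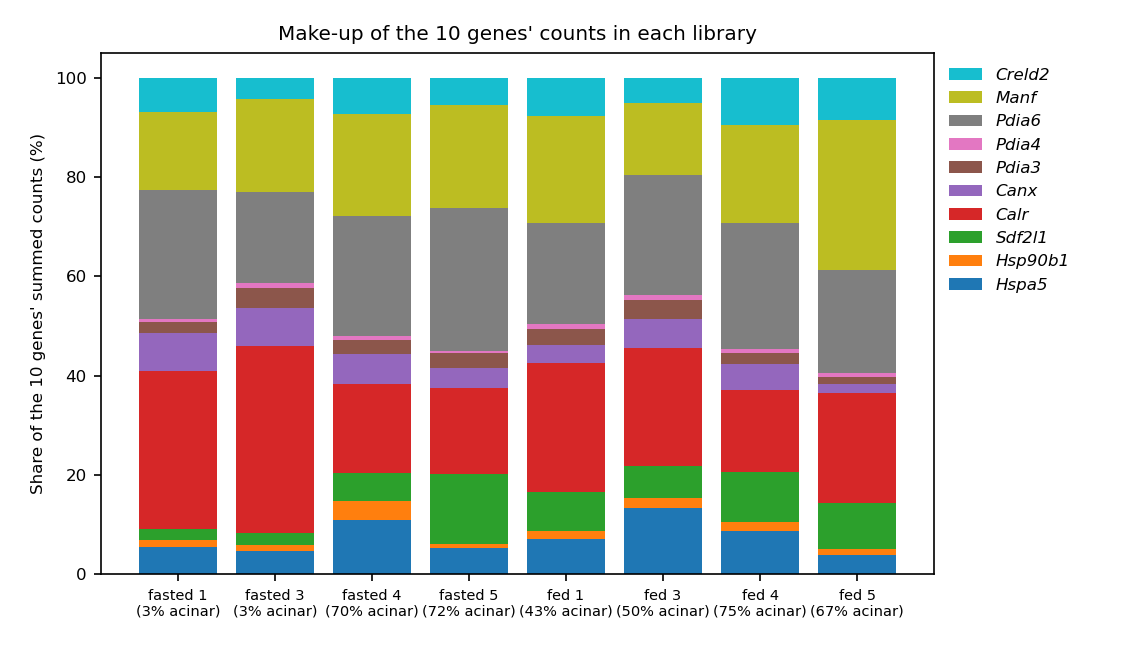
Percentage of the 10 genes' summed counts taken by each gene in each library, with the fasted libraries left of the fed ones and the acinar share of each library under its name. Calr takes its largest shares (31.8% and 37.8%) and Sdf2l1 its smallest (2.11% and 2.39%) in fasted libraries 1 and 3.

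When the acinar share was allowed for, the log2 fold changes lay nearer to 0 for all 10 genes. The share was 3.09% and 3.45% in fasted libraries 1 and 3 and at least 43.3% in the others. Its log2 value therefore mostly sets those libraries apart, and the covariate fits and the fit without them are not independent of each other. With the log2 acinar share as a covariate the log2 fold changes of all 10 genes were still below 0, with a median of -0.57, and 1 gene, Calr, was at an unadjusted p under 0.05, as were 2.29% of all tested genes in that direction (edgeR for Calr, -0.79 ± 0.26, unadjusted p = 0.010, adjusted p = 1.00). With the replicate block added to the covariate, 3 of the 10 (Creld2, Manf and Calr) and 2.01% of all tested genes were lower at an unadjusted p under 0.05, with log2 fold changes of -1.22, -0.94 and -0.81 (edgeR, adjusted p = 0.99 for each). Without fasted libraries 1 and 3 the median was -0.48, with Hsp90b1 at 0.094 ± 0.64 and the other 9 genes below 0. Of the 10, 1 (Calr) was then lower at an unadjusted p under 0.05, and so were 1.77% of the genes tested in that fit. Calr was at -0.78 ± 0.31 (edgeR, unadjusted p = 0.028) and Pdia4 at -1.19 ± 0.63, against -0.43 ± 0.45 for Sdf2l1 and -0.34 ± 0.39 for Pdia6. The acinar share goes with the column number and with treatment in fasted libraries 1 and 3, so its part in the lower fasted levels cannot be told apart from that of fasting in those libraries.

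**Figure D4:**
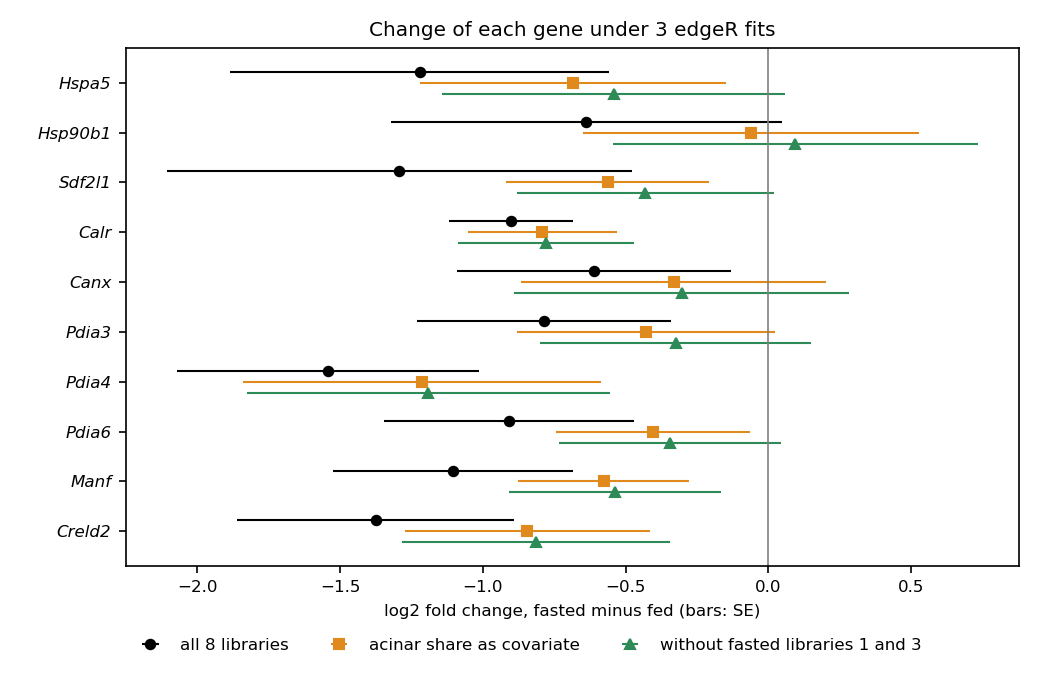
Log2 fold change of each gene, fasted minus fed, with its SE, from edgeR fits on all 8 libraries (black circles), with the log2 acinar share as a covariate (orange squares) and without fasted libraries 1 and 3 (green triangles). The estimates for Calr lie close together at -0.90, -0.79 and -0.78, and those for Sdf2l1 spread from -1.29 to -0.43.

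Other genes of the ER were set beside the family from 5 lists. None of their tested members was called in either direction, and their counts stand beside 50.2% below 0 and 1.62% lower at an unadjusted p under 0.05 among all tested genes. Of the 10 partners and relatives of Hspa5 (J-domain proteins, exchange factors, Hspa13 and Sdf2), 9 were below 0, with a median of -0.43 and 0 at an unadjusted p under 0.05. The 3 most abundant, Dnajc3, Dnajb11 and the exchange factor Hyou1, had log2 fold changes of -0.95 ± 0.92, -0.46 ± 0.50 and -0.52 ± 0.49. Of 25 tested isomerases, oxidases and lectin-cycle enzymes, 19 were below 0, with a median of -0.29 and 0 at an unadjusted p under 0.05. Pdia2, a disulfide isomerase known for its restriction to the pancreas, stood at 4.44, 4.88, 347 and 374 CPM in fasted libraries 1, 3, 4 and 5, against 91.0, 112, 348 and 263 CPM in fed libraries. Its lowest levels were those of fasted libraries 1 and 3. Mesdc2, another ER chaperone, kept within 52.7 to 62.3 CPM in fasted and 45.9 to 68.7 CPM in fed libraries. P4hb, the archetypal disulfide isomerase, had a log2 fold change of -0.83 ± 0.68.

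Of 19 tested genes of ER-associated degradation, which clears misfolded proteins, 14 were below 0 with a median of -0.47, and 5 were at an unadjusted p under 0.05 and lower. The most abundant were Edem2, a mannosidase-like protein, at -0.57 ± 0.64, the lectin Os9 at -0.61 ± 0.26 and the extracting ATPase Vcp at -0.71 ± 0.25 (edgeR, adjusted p = 1.00 for each). Of 32 tested genes of ER import, signal cleavage, glycosylation and retrieval, 25 were below 0 with a median of -0.20, and 1 was at an unadjusted p under 0.05. Dad1, Spcs2 and Ssr4, subunits of oligosaccharyltransferase, signal peptidase and the translocon-associated complex, had log2 fold changes of 0.31 ± 0.26, -0.36 ± 0.18 and -0.01 ± 0.66. Of 15 tested stress sensors and regulators, 5 were below 0 with a median of 0.11. At an unadjusted p under 0.05, 1 of them, Ppp1r15a, was higher, as were 213 of all 7700 tested genes. Among these regulators the phosphatase subunit Ppp1r15a was at 0.66 ± 0.25, the transcription factor Xbp1, a main driver of ER expansion, at -0.58 ± 0.43 and the NF-Y subunit Nfyc at 0.51 ± 0.30. Without fasted libraries 1 and 3 the medians were -0.019, -0.017, -0.026, 0.076 and 0.15 for the 5 lists in this order, and -0.48 for the 10 chaperone genes. Without fasted library 4 they were -0.86, -0.51, -0.78, -0.35 and 0.078, and -1.45 for the 10 genes. With library totals alone, a scaling that put the median of all tested genes at 0.51, they were 0.086, 0.13, -0.051, 0.22 and 0.47, and -0.75 for the 10 genes. Whether the family differed from these lists was not tested.

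**Figure D5:**
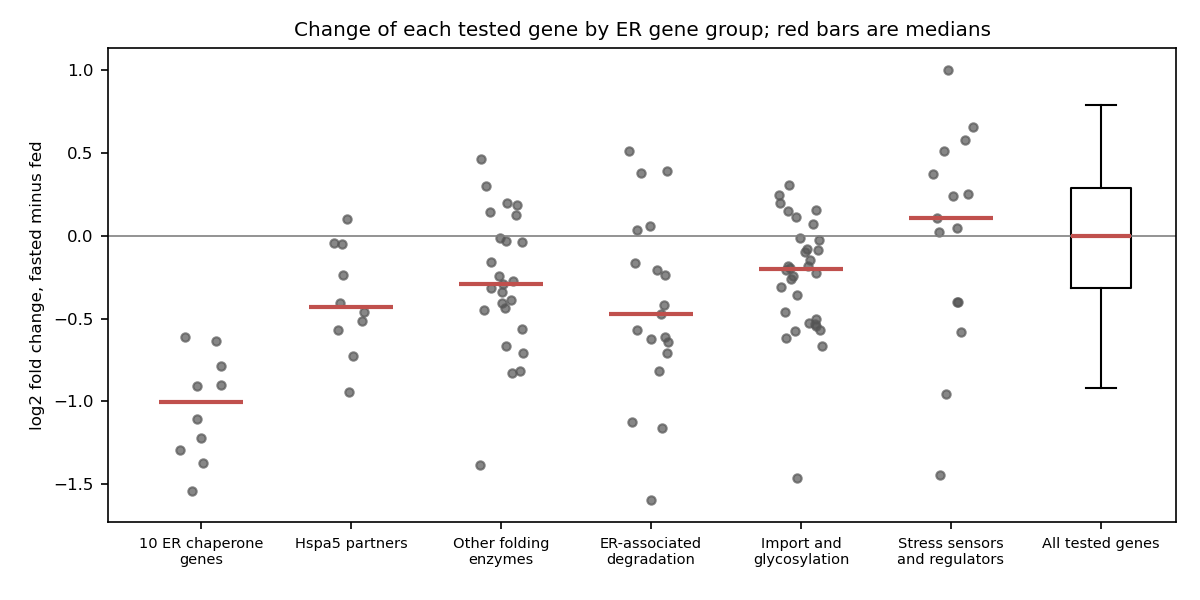
Log2 fold change, fasted minus fed, of each tested gene in the family and in 5 other ER gene groups (points, with the median as a red bar), beside all 7700 tested genes, whose box spans the quartiles and whose whiskers span the 5th to 95th percentiles. All 10 chaperone genes lie at or below -0.61, and the medians of the other groups run from -0.47 to 0.11.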

How the data were processed

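Libraries were made with CEL-seq2, a barcoded 3′ end method, per the labels' protocols. The submitters' processing notes name STAR, edgeR and mm10. The authors deposited raw counts, a whole number for each gene and library. Versions, and whether reads or molecular identifiers were counted, are not given in the sources used here. Treatment was read from column names, since each sequencing file holds both treatments. At most as many columns as sequencing files were used per treatment, so 2 columns, number 2 of each treatment, were not used here, along with 11 spike-in rows (20 counts).

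In R 4.3.3, edgeR 4.0.16 was run on 7700 genes kept by filterByExpr, scaled by TMM and tested by robust quasi-likelihood, two-sided, without covariates, and Benjamini-Hochberg adjustment over all tested genes at 0.05. SE in the edgeR fits was derived as the size of the log2 fold change divided by the square root of the quasi-likelihood F statistic. DESeq2 1.42.0 and limma 3.58.1 (voom with quality weights) were alternatives. The procedures were run on simulated data that kept the library totals but had no difference in acinar share and no pairing. The handling of those, and the fits with a block or covariate, were not tested in that way. Same-number libraries deviated together from their group means (correlations 0.23, 0.14, 0.50 and 0.13), so the numbers were taken to pair libraries, although fasted 3 with fed 1 (0.20) and fasted 5 with fed 4 (0.22) correlated more than the pairs of fasted 3 and of fasted 5. Every pair of libraries of a group differed by more than sampling noise (chi-square divided by genes at least 13.6). Permutation tests used scipy 1.17.1. Members and lists were chosen with earlier results of these data known. Named genes are all members, the 3 most abundant tested genes of each other ER list, and the 5 unlisted genes nearest in profile; the most abundant genes of the marker lists (2210010C04Rik, Ttr, Cd79b, Cd3g, C1qb, Col3a1 and Thy1) entered the sums. Gene coordinates are those of the mm10 build (GRCm38).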

Additional observations from a re-analysis of the deposited data

Results flagged for a closer look

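Fasted library 4 stood apart from the other 3 fasted libraries for 3 of the genes named. Canx was at 39.1 CPM there and at 18.5 to 19.7 CPM in the others, Hsp90b1 at 24.9 CPM against 2.73 to 4.74 CPM, and Os9, a lectin of ER-associated degradation, at 124 CPM against 78.8 to 85.6 CPM. Each was picked out because its gap to the nearest library was a larger part of the group's range than Dixon's 95% critical value. Of 54 groups of 4 looked at, 3 were picked out, where chance gives about 1 in 20. The same library had an acinar share of 70.3%, close to the 72.0% of fasted library 5, which did not stand apart for these genes. The part of acinar RNA in these values was not tested.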

How the results depend on the processing

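No member was called in any of the 20 alternatives, and 10 of 10 (9 of 9 where fewer were tested) were below 0 except in 2. These were the replicate block with the acinar covariate, with Pdia3 at 0.073, and the fit without fasted libraries 1 and 3, with Hsp90b1 at 0.094. DESeq2 gave the lowest adjusted p of a member (Calr, 0.085). Over all genes 0 were called and 338 were at an unadjusted p under 0.05. DESeq2 called 17, library totals alone 1 (Chac1, named after its values were seen) and the fit with no filter on low counts 1; the cause was not tested. Library totals alone moved the median of all genes to 0.51, and the members' median relative to it was -1.26. Members lower at an unadjusted p under 0.05 numbered 4 (1.62% of all tested genes), but 9 with limma-voom (4.43%), 7 with the replicate block (3.14%), 1 with the acinar covariate (2.29%), 3 with both (2.01%), 8 without fasted library 4 (3.43%), 6 without fasted library 5 (1.79%), 1 without fed library 4 (1.64%), 1 without fasted libraries 1 and 3 (1.77%) and 0 with library totals alone (0.429%). Leaving out 1 library, members and genes called ran from 0 to 0, the log2 ratio of the summed level from -1.33 to -0.75 and the log2 difference in acinar share from -2.66 to -1.15.

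Directions turned for named genes outside the family as follows, the cause not being tested. With library totals alone Spcs2 was at 0.15 and Ssr4 at 0.054. With the acinar covariate Dnajb11, Hyou1, Pdia2, Edem2 and Ssr4 were at 0.12, 0.039, 0.60, 0.11 and 0.68, and with the replicate block added Dnajc3, Hyou1, Pdia2, Ssr4 and Dad1 at 0.13, 0.0082, 0.25, 0.25 and -0.20. Without fasted libraries 1 and 3 Dnajb11, Hyou1, Pdia2, Edem2 and Ssr4 were at 0.13, 0.16, 0.83, 0.18 and 0.75. With 1 library left out Pdia2 ran from -0.78 to 0.24 and Ssr4 from -0.43 to 0.28. The correlation of Hsp90b1 with the acinar share was -0.031 over non-acinar counts, against 0.03. Pdia4 had the fewest counts of the 10 genes, 5 in fasted library 1.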

Other observations

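Of the 37 genes whose promoter window holds the exact ER stress response element, 12 were tested, 6 of them outside the family, and 5 of those 6 were below 0 with a median log2 fold change of -0.74. Of these, 3 (Syvn1, Dnajc3 and Derl3) are also on the other ER lists described above. The 6 outside the family were Syvn1, the ubiquitin ligase of ER-associated degradation (-1.60), Dnajc3, a J-domain partner of Hspa5 (-0.95), Derl3, a channel component of the same degradation pathway (-0.82), Hnrnpa3 (-0.66), Alg12, a mannosyltransferase whose window overlaps that of Creld2 (-0.55), and Pan2, a deadenylase subunit (1.00). None was called by edgeR. The unadjusted p (edgeR) was 0.0062 for Syvn1 and 0.033 for Pan2, and ran from 0.16 for Hnrnpa3 to 0.58 for Derl3 in the others. The median of all tested genes was -0.0017, and 50.2% of them were below 0. Within the family, the 6 members with the element had a median of -0.91. Pdia3, Pdia4 and Sdf2l1, which had no exact match, were at -0.79, -1.54 and -1.29. Whether genes with the element differed from genes without it was not tested.

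The genes nearest to the family's mean profile were found by the root mean square difference between log2 levels centred on their mean over the 8 libraries. Outside all lists these were Eif1a (0.24), Nudcd2 (0.25), Tpd52 (0.28), 6430548M08Rik (0.30) and Senp2 (0.32), where Pdia6, the member nearest to the mean of its own family, was at 0.24 and Sdf2l1, the farthest, at 0.88. Tpd52 stood at 7.25, 6.64, 18.6 and 13.3 CPM in fasted libraries 1, 3, 4 and 5, against 13.4, 16.9, 29.4 and 18.8 CPM in fed libraries. Eif1a, Nudcd2, 6430548M08Rik and Senp2 were scarce, with lowest levels of 1.40, 0.94, 0.98 and 1.56 CPM in fasted library 1 or 3. Of the 5, only Tpd52 was kept when at least 10 counts were required in every library. None of the 5 was called.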
